A study of Sus scrofa with 6 samples.

Results

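The chaperones and the genes of endoplasmic reticulum stress were compared between the renal medulla of pigs after cardiopulmonary bypass (CPB) and after a sham procedure. A gene was included if a probe set of the array annotation carried its symbol alone, and if that symbol belonged to the HSP, DNAJ, CCT, PDIA or BAG families or was 1 of a further set of symbols (TCP1, HSF1, HSF2, CALR, CANX, XBP1, ATF4, DDIT3, HYOU1, STIP1 and others). This gave 66 genes on 112 probe sets, out of 6765 genes with a single symbol and 23999 probe sets that are no controls. Of the 66 genes, 43 encode cytosolic or nuclear proteins, 6 encode mitochondrial proteins and 17 encode proteins of the endoplasmic reticulum or of its stress response. The inducible HSP70 genes HSPA1A and HSPA1B and the related HSPA1L, the reticulum stress sensors ATF6, ERN1 and EIF2AK3, and AHSA1, P4HB, HERPUD1, SEL1L and EDEM1 were carried by no such probe set and were not analysed here.

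Chaperones hold newly made or damaged proteins until they fold. In the cytosol, HSP70 proteins work in cycles with J-domain proteins, which deliver the client and trigger ATP hydrolysis, and with exchange factors of the BAG and HSP110 families, which release it, and heat shock factors switch on many of these genes after heat, oxidants or ischaemia. Unfolded protein in the endoplasmic reticulum raises reticulum chaperones such as HSPA5 through the sensors ATF6, ERN1 and EIF2AK3, and it also raises ATF4 and DDIT3. Tubule cells of the outer medulla work at low oxygen and are easily injured by ischaemia.

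The 6 animals were adult female Large White-Landrace crossbred pigs (White-Landrace in the labels), 3 in each group, and RNA of each went onto a separate Affymetrix porcine array. Sham pigs had 2.5 hours of general anaesthesia with a neck dissection and heparin, and CPB pigs had 2.5 hours of CPB under the same anaesthesia. Both groups recovered, and the medulla was taken 24 hours after the intervention, so an earlier response was not sampled. Values are RMA intensities (background-corrected, quantile-normalised and summarised per probe set), given as log2, and a difference is the CPB mean minus the Sham mean with its standard error (SE, n = 3 animals per group).

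The arrays of a group did not hold the same mixture of kidney cells. The summed intensity of 15 measured of 27 listed proximal tubule markers lay between 3767 and 39019 in Sham and between 5938 and 48516 in CPB, with Sham 2, CPB 1 and CPB 3 high and Sham 1 and CPB 2 low. The sum of 5 measured of 16 listed urothelium markers lay between 428 and 2930 in Sham and between 322 and 3819 in CPB, and was high in Sham 1, Sham 3 and CPB 2. Not every gene of that list followed the sum. In CPB 2, GATA3 (11.43 in log2) and UPK3A (9.71) were at their highest, while UPK1A was at its lowest (4.92). UPK1B was 6.86 in CPB 2 against 10.24 in Sham 3, and UPK2 ranged only from 5.87 to 6.43. The 8 measured of 22 listed loop of Henle and collecting duct markers, the cells that the label medulla implies, summed to between 10261 and 15561 in Sham and between 10629 and 15179 in CPB. The genes in this sum differed in pattern. AQP1 stayed between 11.94 and 12.44 in log2. AQP3 measured 12.24, 10.03 and 11.34 in Sham and 10.08, 12.41 and 10.32 in CPB. HSD11B2 measured 9.32, 10.89 and 10.17 in Sham and 10.04, 9.84 and 9.85 in CPB. These genes were picked after their values were seen. RMA gives every probe set a value above 0, so no marker was at 0. In whole tissue, fewer cells of a type and less RNA per cell cannot be told apart. The intensity of the 3' over the 5' end of the GAPDH control, a measure of how complete the RNA was, lay between 1.63 in CPB 3 and 3.02 in CPB 2. For the actin control this ratio was 4.81, 5.52 and 3.78 in Sham and 5.79, 5.13 and 3.85 in CPB, so CPB 1 was highest there.

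Among the 112 member probe sets, 1 met the threshold that the study set, at least 1.6-fold at an unadjusted p below 0.05, applied here to limma. This was 0.893%, beside 0.304% of all probe sets. The probe set was that of HSPA2, and it was higher in CPB, a direction in which 0.0875% of all probe sets met the threshold. None of the 112 was lower at the threshold, beside 0.217% of all. The same single probe set, or 0.893%, had an unadjusted p under 0.05 in limma, beside 1.4% of all. No member passed a limma adjusted p of 0.05, and 0% of all probe sets did. The smallest adjusted p of a member was 0.995, which was also the smallest of any probe set. An exact permutation test of 3 arrays against 3 cannot go below a two-sided p of 0.1.

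The direction of the remaining members was mixed. The mean was higher in CPB for 67 of the 112 probe sets (59.8%), beside 55.9% of all probe sets. The 3 CPB arrays all lay above the 3 Sham arrays for 6 members (5.36%, beside 3.38% of all) and all below them for 2 (1.79%, beside 1.89% of all). On the brightest probe set of each gene, by its mean over all arrays, 41 of the 66 genes were higher on average in CPB, with a median difference of 0.051, beside 0.033 over the 6765 genes with a single symbol. The share of higher means and the median lay near those of the whole array. The plot of differences gives each gene with its interval.

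**Figure D1:**
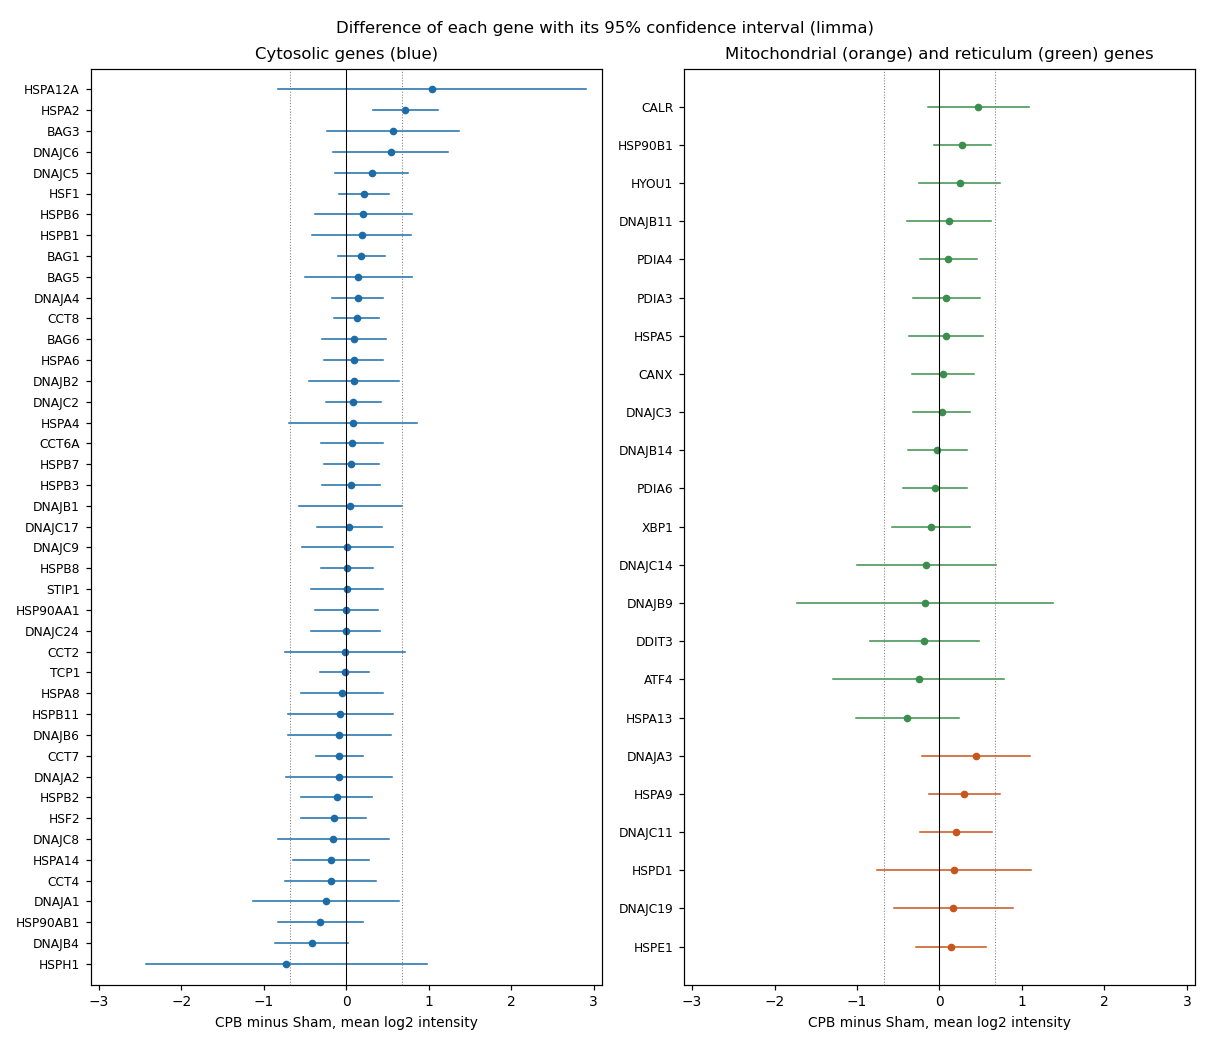
The horizontal axis is the CPB minus Sham difference in mean log2 intensity for the brightest probe set of each of the 66 genes, with cytosolic genes in blue, mitochondrial genes in orange and reticulum genes in green. Bars are 95% confidence intervals from limma, dotted lines mark 1.6-fold, and the interval of HSPA2 lies wholly above 0.

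HSPA2, a member of the HSP70 family best known from spermatogenesis, had log2 intensities of 4.77, 4.95 and 5.12 in the 3 Sham animals and of 5.83, 5.43 and 5.74 in the 3 CPB animals. All CPB arrays were higher than all Sham arrays. On the linear scale the mean intensity was 31.0 in Sham (SD 3.73, n = 3) against 51.2 in CPB (SD 7.31, n = 3). Its log2 difference was 0.72 (SE 0.16, 95% confidence interval 0.32 to 1.11, limma adjusted p = 0.995), which is 1.64-fold. The values lay below the median log2 intensity of the arrays (6.56 to 6.59), and the difference fell just short of 1.6-fold without Sham 1 (0.629) or without CPB 1 (0.634), and with the proximal tubule marker level as a covariate (0.64). The study chose its own list of changed genes on these arrays and HSPA2 is in it, so its direction there is not independent evidence. HSP70 genes are alike in sequence, the probe sequences were not used here, and whether this probe set also reads another family member was not tested.

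The other HSP70 genes of the cytosol did not pass the test. HSPA8, the constitutive HSP70 of all cells, measured 11.86, 11.76 and 12.28 in Sham and 12.12, 11.62 and 11.99 in CPB. The groups overlapped, and the difference was -0.052 (SE 0.20). Its 3 dimmer probe sets had differences between 0.12 and 0.22. HSPA6 differed by 0.092 (SE 0.15) and HSPA14, a ribosome-associated member, by -0.18 (SE 0.19).

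HSPA12A, a distant relative of HSP70, had the largest difference among the brightest probe sets of the 66 genes, and it was picked for this after its values were seen. It measured 6.004, 8.15 and 6.27 in Sham and 8.51, 6.56 and 8.47 in CPB. Sham 2, CPB 1 and CPB 3 were high and the other 3 arrays were low, so the groups overlapped, and these are the same 3 arrays that were high in proximal tubule markers. The difference was 1.04 (SE 0.76, 95% confidence interval -0.83 to 2.90), and 0.53 (SE 0.30) with the proximal tubule level as a covariate. DNAJC6, the J-domain protein auxilin that strips clathrin from vesicles, measured 7.46, 7.92 and 7.50 in Sham and 8.50, 7.57 and 8.42 in CPB. It was high in the same 3 arrays, and its difference was 0.54 (SE 0.29), or 0.37 (SE 0.16) with the covariate.

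BAG3, a heat-inducible partner of HSP70 that routes clients to autophagy, measured 8.45, 9.52 and 9.21 in Sham and 9.79, 9.20 and 9.90 in CPB. CPB 1 and CPB 3 were the highest arrays and CPB 2 fell within the Sham range. The difference was 0.57 (SE 0.33, 95% confidence interval -0.23 to 1.37), and 0.35 (SE 0.13) with the proximal tubule covariate. On its dimmer probe set the difference was 0.20 (SE 0.22). All 4 BAG genes had a higher mean in CPB on their brightest probe set, with a median of 0.17. BAG1, an exchange factor of HSP70 named here after its values were seen, did so without overlap, with Sham at 9.35, 9.33 and 9.32 and CPB at 9.47, 9.67 and 9.41 (difference 0.18, SE 0.12).

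HSPH1, the HSP110 exchange factor, varied most widely among the cytosolic genes that were lower on average. It measured 9.85, 8.40 and 11.09 in Sham and 8.89, 9.72 and 8.55 in CPB. Sham 3 stood highest and Sham 2 lowest, and the difference of -0.73 (SE 0.70, 95% confidence interval -2.43 to 0.98) was smaller in size than the spread within Sham. DNAJB4, a J-domain partner of HSP70, measured 9.68, 9.04 and 9.43 in Sham and 8.92, 9.001 and 8.97 in CPB. All 3 CPB arrays lay below all Sham arrays, with CPB 2 and Sham 2 nearly level, and the difference was -0.42 (SE 0.18, 95% confidence interval -0.86 to 0.018). The other member without overlap on the lower side was the dimmest probe set of HSPA4, an HSP110 relative named here after its values were seen. It differed by -0.20 (SE 0.11), while the brighter 2 of its 3 probe sets differed by 0.085 and 0.039.

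The HSP90 machinery showed no difference past the test. HSP90AA1, the stress-inducible HSP90, measured 12.18, 11.85 and 12.37 in Sham and 12.13, 12.19 and 12.07 in CPB on its brightest probe set. The groups overlapped, and the difference was 0.0004 (SE 0.16, 95% confidence interval -0.39 to 0.39). Over all 5 probe sets of HSP90AA1 the difference ran from -0.42 to 0.11. In a fit without Sham 2 and CPB 2 the dimmer ones differed by 0.67, 0.70, -0.41 and -0.015, beside -0.17 on the brightest. HSP90AB1, the constitutive form, measured 11.52, 11.15 and 11.88 in Sham and 11.18, 11.38 and 11.04 in CPB. Sham 3 was highest, and the difference was -0.31 (SE 0.21). STIP1, which hands clients from HSP70 to HSP90, differed by 0.0083 (SE 0.18).

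HSF1 (heat shock factor 1), the main switch of the heat shock response, measured 8.32, 8.66 and 8.44 in Sham and 8.65, 8.70 and 8.71 in CPB. Sham 2 and CPB 1 lay side by side and the difference was 0.22 (SE 0.13, 95% confidence interval -0.09 to 0.52). HSF2 differed by -0.15 (SE 0.16). Transcript levels of these factors do not report their activity, which is set by trimerisation and phosphorylation. Of the classical heat-inducible J-domain genes, DNAJB1 differed by 0.047 (SE 0.26) and DNAJA1 by -0.24 (SE 0.36). HSPB1, the small heat shock protein HSP27, differed by 0.19 (SE 0.25), with CPB 2 at 10.60 above the other arrays. With the proximal tubule covariate the difference of HSPB1 was 0.35 (SE 0.11).

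Across the 43 cytosolic genes, 26 had a higher and 17 a lower mean in CPB, 1 was called higher (HSPA2) and the median difference was 0.039. The 7 small heat shock protein genes among these split into 5 higher and 2 lower with a median of 0.056. The 6 CCT chaperonin genes, which fold actin and tubulin, split into 2 higher and 4 lower with a median of -0.016, and TCP1 differed by -0.019 (SE 0.12). DNAJC5, the synaptic vesicle J-domain protein named here after its values were seen, was the third cytosolic gene with CPB wholly above Sham, at 6.92, 6.92 and 6.59 in Sham and 6.95, 7.43 and 6.97 in CPB (difference 0.31, SE 0.18). The median over all probe sets was 0.027, so the cytosolic median was close to that of the array. With each array left out in turn it lay between -0.014 (without CPB 2) and 0.097 (without Sham 3). It turned to -0.042 without Sham 2 and CPB 2, and was -0.027 with array weights.

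**Figure D2:**
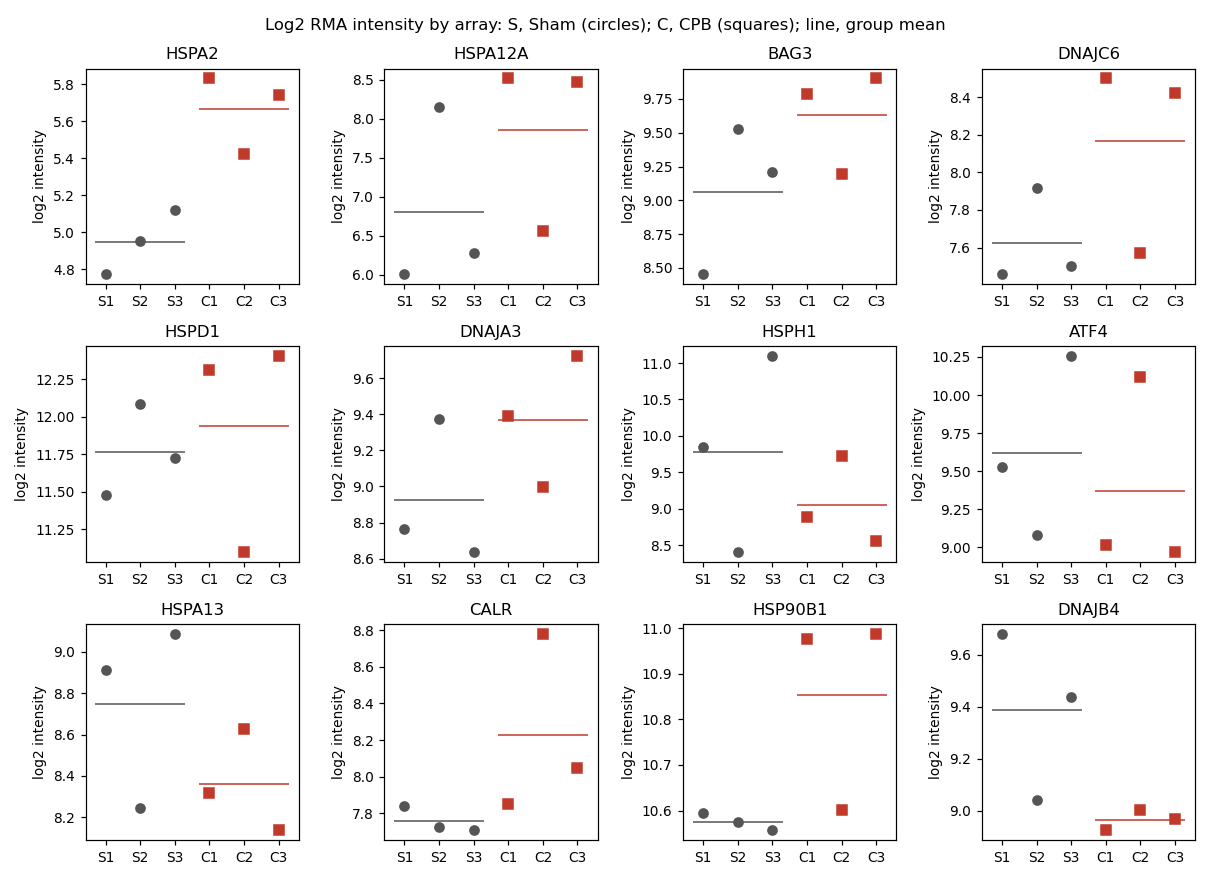
Each panel gives the log2 intensity of 1 gene on each array, with Sham animals as grey circles, CPB animals as red squares and a line at each group mean. HSPA12A, DNAJC6, HSPD1 and DNAJA3 are high on Sham 2, CPB 1 and CPB 3, ATF4 is high on Sham 3 and CPB 2, and HSPA2, CALR, HSP90B1 and DNAJB4 have groups that do not overlap.

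All 6 mitochondrial genes had a higher mean in CPB, with differences between 0.14 and 0.44 and a median of 0.19, and none passed the test. The median was 0.43 without CPB 2, 0.33 without Sham 2, 0.10 without Sham 3 and 0.11 without CPB 3. The count fell to 4 of 6 without CPB 3, and to 5 of 6 without CPB 1 or without Sham 3. HSPD1, the chaperonin HSP60 of the mitochondrial matrix, measured 11.48, 12.08 and 11.72 in Sham and 12.31, 11.10 and 12.40 in CPB. CPB 1 and CPB 3 were the highest arrays and CPB 2 was the lowest of all 6, and the difference was 0.17 (SE 0.38). HSPE1, the lid of that chaperonin, measured 12.21, 12.50 and 12.09 in Sham and 12.42, 12.18 and 12.62 in CPB (difference 0.14, SE 0.17). CPB 3 and Sham 2 were its highest arrays.

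HSPA9, the mitochondrial HSP70 that pulls imported proteins into the matrix, measured 11.30, 11.58 and 11.20 in Sham and 11.72, 11.40 and 11.87 in CPB. CPB 2 fell inside the Sham range and the difference was 0.30 (SE 0.17, 95% confidence interval -0.13 to 0.73). DNAJA3, its J-domain partner, measured 8.77, 9.37 and 8.63 in Sham and 9.39, 8.997 and 9.72 in CPB (difference 0.44, SE 0.27). CPB 1 and CPB 3 again lay above the other arrays. DNAJC11, a J-domain protein of the inner membrane organising system, differed by 0.20 (SE 0.18), and by 0.23 (SE 0.11) with CPB wholly above Sham on its dimmer probe set.

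After centring each gene over the 6 arrays, the mean of the 6 mitochondrial genes was -0.15, 0.15 and -0.35 in Sham and 0.19, -0.23 and 0.39 in CPB. The arrays above 0 were Sham 2, CPB 1 and CPB 3, which were the arrays above 0 for the proximal tubule markers as well, at 1.27, 1.36 and 1.61. With the proximal tubule level as a covariate, 5 of the 6 genes were higher in CPB, the median was 0.14 and HSPD1 turned to -0.071 (SE 0.18). Of 18 other mitochondrial chaperones and proteases, 9 were measured, 8 of them with a higher mean in CPB (median 0.27). None met the threshold, beside 0.304% of all probe sets.

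**Figure D3:**
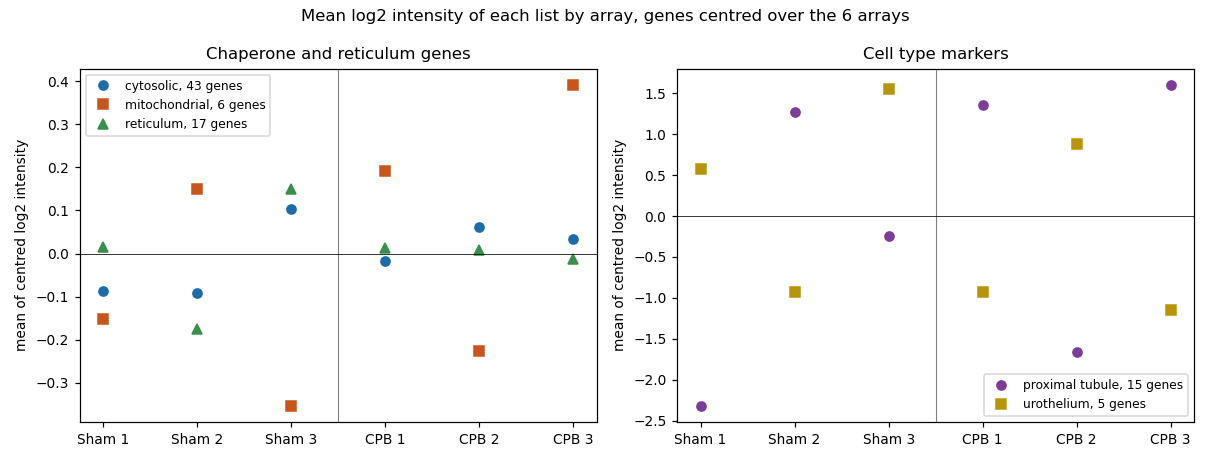
The vertical axis is the mean log2 intensity of each list on each array after centring every gene over the 6 arrays, with chaperone and reticulum genes on the left and cell type markers on the right on a wider scale. The mitochondrial genes and the proximal tubule markers are both above 0 on Sham 2, CPB 1 and CPB 3, while the cytosolic list stays between -0.092 and 0.10.

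The 17 reticulum genes split into 9 with a higher and 8 with a lower mean in CPB, with a median of 0.026, and none passed the test. With each array left out in turn the median lay between -0.017 (without CPB 3) and 0.12 (without CPB 2). HSPA5 (BiP), the central chaperone of the reticulum and a usual readout of its stress, measured 11.37, 11.14 and 11.34 in Sham and 11.67, 11.04 and 11.39 in CPB. CPB 1 was the highest array and CPB 2 the lowest, and the difference was 0.079 (SE 0.18, 95% confidence interval -0.37 to 0.53). HSP90B1 (GRP94), the HSP90 of the reticulum, measured 10.59, 10.58 and 10.56 in Sham and 10.98, 10.60 and 10.99 in CPB. CPB lay wholly above Sham, though CPB 2 only narrowly, and the difference was 0.28 (SE 0.14, 95% confidence interval -0.065 to 0.62). Its dimmer probe set had CPB 2 as the lowest array, at 8.53, and a difference of 0.23 (SE 0.35).

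CALR, the calcium-binding lectin chaperone calreticulin, measured 7.84, 7.72 and 7.71 in Sham and 7.85, 8.78 and 8.05 in CPB. All CPB arrays lay above all Sham arrays, but CPB 1 stood only just above Sham 1 and CPB 2 carried most of the difference of 0.47 (SE 0.25, 95% confidence interval -0.14 to 1.08). With the proximal tubule covariate the difference was 0.60 (SE 0.19). Calnexin (CANX), its membrane-bound counterpart, was read by 6 probe sets, all with a higher mean in CPB, with differences between 0.040 and 0.24. On the brightest it measured 11.39, 10.94 and 11.35 in Sham and 11.33, 11.30 and 11.17 in CPB, so that Sham 2 was lowest and the groups overlapped (difference 0.040, SE 0.16). HYOU1, the exchange factor of HSPA5, differed by 0.24 (SE 0.20).

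The disulfide isomerases PDIA3, PDIA4 and PDIA6, which form and reshuffle disulfide bonds in secreted proteins, differed by 0.081 (SE 0.17), 0.11 (SE 0.14) and -0.055 (SE 0.16). HSPA13, a microsomal HSP70 relative, measured 8.91, 8.25 and 9.09 in Sham and 8.32, 8.63 and 8.14 in CPB. Sham 1 and Sham 3 were the highest arrays, and the difference was -0.39 (SE 0.26, 95% confidence interval -1.01 to 0.24).

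On their brightest probe sets, the 3 transcription factors of the reticulum stress response had lower means in CPB, each within the spread of the animals. ATF4 measured 9.53, 9.08 and 10.25 in Sham and 9.01, 10.12 and 8.97 in CPB. Sham 3 and CPB 2 were high. These arrays were also the highest for the mean of the urothelium markers (1.55 and 0.87 after centring), though UPK1A was lowest in CPB 2. The part of these markers in the result was not tested. The difference of ATF4 was -0.25 (SE 0.42). Its dimmer probe set measured 5.08, 5.28 and 5.08 in Sham and 5.16, 5.28 and 5.24 in CPB (difference 0.079, SE 0.11). The array reads ATF4 transcript and not ATF4 protein. DDIT3 (CHOP), the death-promoting target of ATF4, measured 6.79, 6.25 and 6.60 in Sham and 6.17, 6.89 and 6.03 in CPB. CPB 2 was its highest array and CPB 3 its lowest, and the difference was -0.18 (SE 0.27). XBP1, whose transcript is spliced by ERN1 under stress, measured 10.42, 10.25 and 10.94 in Sham and 10.41, 10.40 and 10.49 in CPB (difference -0.10, SE 0.19). Sham 3 stood above the other 5 arrays, and the array does not tell spliced from unspliced XBP1.

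Of 62 other genes of reticulum folding, quality control and stress, 38 were measured, with 17 higher and 21 lower means in CPB and a median of -0.0089. At the threshold 1 was lower, beside 0.217% of all probe sets, and none was higher, beside 0.0875% of all. The lower gene was KDELR3, a receptor that returns escaped reticulum proteins from the Golgi. It measured 6.92, 6.79 and 6.78 in Sham and 6.34, 5.88 and 5.88 in CPB. All CPB arrays lay below all Sham arrays (difference -0.79, SE 0.16, limma adjusted p = 0.995). Its 2 dimmer probe sets overlapped between the groups and differed by -0.033 (SE 0.20) and 0.13 (SE 0.17). Of 27 other cytosolic chaperones and partners, 22 were measured. The largest difference was that of CRYAB, a small heat shock protein outside the included symbols, named here after its values were seen. It measured 11.72, 9.37 and 11.12 in Sham and 8.71, 11.80 and 9.29 in CPB, with overlap (difference -0.80, SE 0.96). The only one lower at the threshold, beside 0.217% of all probe sets, was the extracellular chaperone clusterin (CLU). It measured 10.16, 10.55 and 10.23 in Sham and 10.09, 9.58 and 9.14 in CPB, without overlap (difference -0.71, SE 0.26, limma adjusted p = 0.995). CLU missed the threshold with 5 of the 6 arrays left out in turn, all but CPB 1. KDELR3 and CLU are both in the study's own list, chosen on these arrays.

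Probe sets of a gene did not always move alike. Among 28 genes with several probe sets, 13 had differences of both signs and 15 of a single sign. The middle probe set of PDIA3 measured 7.90, 8.29 and 9.29 in Sham and 8.61, 6.36 and 9.30 in CPB, which was the widest range of any member at 2.94, while the brightest ranged from 10.27 to 10.81. CPB 2 was lowest and Sham 3 and CPB 3 were highest. The dimmest probe set of HSPA9 (7.65, 8.53 and 8.71 in Sham, 8.43, 6.59 and 9.36 in CPB) and a dimmer one of PDIA4 (7.70, 7.53 and 8.78 in Sham, 8.10, 6.45 and 8.55 in CPB) likewise had CPB 2 as the lowest array. These probe sets were picked after their values were seen.

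CPB 2 was the lowest array for 28 of the 112 member probe sets (25%), beside 17.9% of all. Sham 1 was lowest for 24 (21.4%, beside 22.1% of all). On the high side, CPB 3 was the highest array for 38 (33.9%, beside 23.8% of all) and Sham 3 for 28 (25%, beside 14.4%). CPB 2 was highest for 23 (20.5%, beside 20.8%) and Sham 2 for 4 (3.57%, beside 16.8%). Of the 46 further probe sets, 23 were lowest in CPB 2 relative to the brightest probe set of their gene, and 10 were lowest in Sham 3. Some others were highest in CPB 2 on this relative measure, such as those of DNAJA1 (1.07 after centring) and HSPA8 (up to 0.62). No share over the whole array was computed for that relative measure. Of the 27 members with a range over 1 on the log2 scale, 16 (59.3%) were lowest in CPB 2, beside 24.9% of the 5653 such probe sets on the whole array. These are counts of probe sets, and a gene can enter more than once. DNAJB9, a reticulum J-domain protein induced by XBP1, had all 3 of its probe sets among the 16. On the brightest it measured 8.25, 9.28 and 9.08 in Sham and 9.17, 7.30 and 9.60 in CPB (difference -0.18, SE 0.64). Its other probe sets differed by -0.19 (SE 0.64) and 0.22 (SE 0.35). CPB 2 was its lowest array and Sham 1 the next. CPB 2 had the highest and CPB 3 the lowest GAPDH 3' over 5' value, at 3.02 and 1.63. On the actin control CPB 1 was highest at 5.79, CPB 2 was at 5.13 and Sham 3 was lowest at 3.78. The part of RNA completeness in these values was not tested beyond a GAPDH covariate. With it 1 member, HSPA2, met the threshold (0.893%, beside 0.438% of all probe sets).

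**Figure D4:**
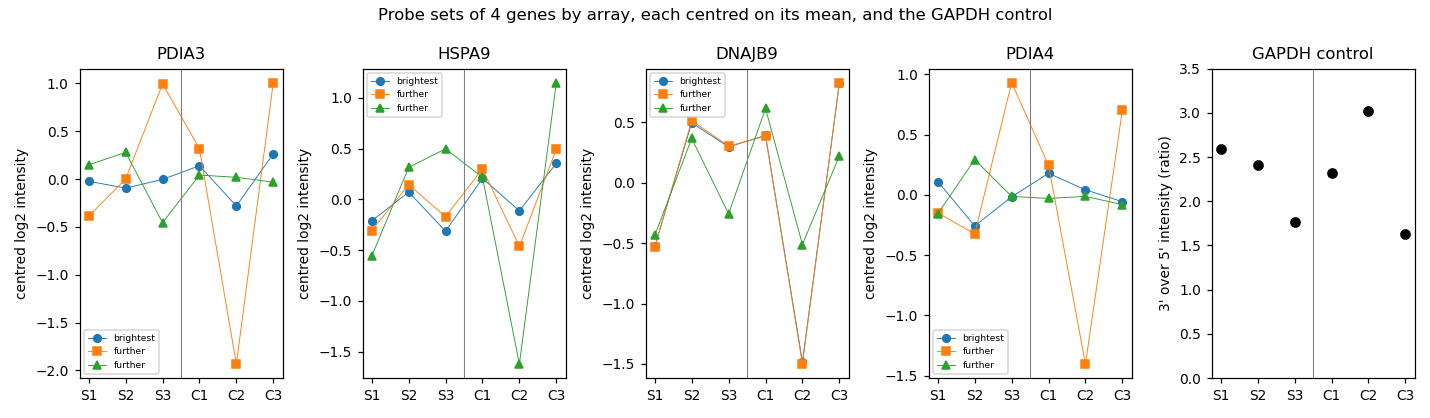
The first 4 panels give the log2 intensity of each probe set of PDIA3, HSPA9, DNAJB9 and PDIA4 by array, each centred on its own mean, with S for Sham and C for CPB, and the last panel gives the GAPDH 3' over 5' intensity ratio of each array. One further probe set of PDIA3, HSPA9 and PDIA4 falls steeply on CPB 2 where the brightest does not, and CPB 2 has the highest GAPDH ratio.

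The calls depended on which animals were compared. Without Sham 2 and CPB 2, 11 member probe sets (9.82%) met the threshold, 8 higher and 3 lower, while the count over the whole array rose from 73 to 3070 (12.8%). HSPA12A (2.35, SE 0.14, adjusted p = 0.035) and DNAJC6 (0.98, SE 0.11, adjusted p = 0.040) then passed the adjusted test of limma, which is 1.79% of the members beside 3% of all probe sets. The 3 lower genes were HSPH1, HSPA13 and ATF4. In that comparison both remaining CPB arrays were above and both remaining Sham arrays below 0 in centred proximal tubule marker level, so this level and the intervention cannot be told apart there. Without CPB 2 alone 3 members (2.68%) met the threshold, beside 2.89% of all probe sets. Without Sham 2 alone 2 did (1.79%), beside 2.92% of all. In each of these fits the share of members lay below that of the whole array.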

How the data were processed

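Renal medulla of 3 Sham and 3 CPB pigs was hybridised to Affymetrix porcine arrays, 1 for each animal. The authors normalised the raw files with RMA, and the deposited values are RMA intensities on a linear scale for 24123 probe sets. The log2 of each deposited intensity was taken here. The 124 control probe sets were left out, and the other 23999 were compared with limma 3.58.1 (lmFit, eBayes) in R 4.3.3, in a model of group alone, and p-values were adjusted by Benjamini-Hochberg over the 23999. Where the study's threshold is used, limma's test takes the place of its t-test. Gene names come from the platform annotation of 10297 probe sets, and the 198 with several symbols were not used. Lists were described with the brightest probe set per gene. Precision rests on 3 animals per group, and the deposited values give no background per probe. No genome build is named, so no positions are given, and promoter sequences were not used here.

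The members and lists were chosen with earlier results of these data known. Genes were named if they met the threshold, had 1 of the 4 smallest p-values of their compartment, belonged to a set of well-known chaperones, or met the threshold in the other lists. HSPA6 and HSPA14 also fall outside this rule. The alternatives were array weights, a trend with a robust prior, centring on each array's median and a second quantile normalization. Further ones were omission of dim probe sets, inclusion of controls, averaging a gene's probe sets, a proximal tubule covariate and the replicate number as a block. The last were a Student's t-test on log2 values, fold minimums of 1.5 and 2, and each array left out in turn. A covariate for the GAPDH 3' over 5' ratio, and the fit without Sham 2 and CPB 2 for results other than the count of calls and the medians of the compartments, were added after seeing the data. The fit was tested on simulated data.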

Additional observations from a re-analysis of the deposited data

How the results depend on the processing

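The count of 1 member probe set at the threshold became 7 with array weights (6.25%, beside 8.82% of all probe sets) and 11 without Sham 2 and CPB 2 (9.82%, beside 12.8%). It became 0 with dim probe sets left out, with the proximal tubule covariate or with a fold minimum of 2. The shares of all probe sets there were 0.467%, 0.442% and 0.0875%. HSPA2 is itself dim, so it was not tested where dim probe sets were left out, and at 1.64-fold it could not meet a minimum of 2. With each array left out in turn the count ranged from 0 to 3 (2.68%), beside 0.217% to 2.92% of all. The number of cytosolic genes higher in CPB fell from 26 to 17 without Sham 2 and CPB 2, and the mitochondrial median rose to 0.56. No other alternative moved the medians of the compartments by more than the spread between animals, or their counts by more than 1.5 times, although the reticulum median, 0.026, was -0.055 with the mean of a gene's probe sets. The shared replicate numbers did not pair the animals (correlations of deviations of -0.39, -0.68 and -0.016). With the replicate number as a block 1 member met the threshold, HSPA2 (0.893%, beside 0.317% of all), while CLU missed it. A Student's t-test run here on the log2 values also called 1 member (0.893%, beside 0.125% of all). It missed CLU, which the study's own t-test lists as lower, so it did not reproduce all of the study's calls. The causes of the other changes were not tested. Promoter motifs were not run.

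Some differences changed sign. Not all of them were small in the main fit, where the further probe sets of PDIA3 and PDIA4 differed by -0.41 and -0.30. With array weights CANX was -0.0090, DNAJB9 0.37, HSP90AA1 -0.096, HSPA8 0.044, HSPB1 -0.027, STIP1 -0.21, HSPA4 -0.38 and the dimmest probe set of HSPA9 0.20. With the proximal tubule covariate DNAJB1 was -0.079 and HSPD1 -0.071. Without Sham 2 and CPB 2, CANX was -0.12, DNAJB9 0.72, HSP90AA1 -0.17, HSPB1 -0.17, HYOU1 -0.025, STIP1 -0.20, HSPA4 -0.43, and the further probe sets of PDIA3, PDIA4 and HSPA9 were 0.36, 0.083 and 0.71. With each array left out in turn, the difference ranged from -0.63 to 0.062 for ATF4, -0.10 to 0.12 for CANX, -0.42 to 0.085 for DNAJA1, -0.17 to 0.25 for DNAJB1, -0.63 to 0.52 for DNAJB9, -0.14 to 0.12 for HSP90AA1, -0.070 to 0.24 for HSPA5 and -0.16 to 0.10 for HSPA8. It ranged from -0.030 to 0.34 for HSPB1, -0.059 to 0.59 for HSPD1, -0.031 to 0.24 for PDIA3, -0.14 to 0.071 for PDIA6, -0.14 to 0.14 for STIP1, -0.090 to 0.048 for TCP1, -0.25 to 0.097 for XBP1 and -0.21 to 0.29 for HSPA4. For the further probe sets it ranged from -1.01 to 0.46 for PDIA3, -0.73 to 0.32 for PDIA4 and -0.79 to 0.60 for HSPA9.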
